A study of Mus musculus with 4 samples.

Results

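The matrix metalloproteinases (Mmp), the Adam and Adamts proteases, the Adamts-like proteins (Adamtsl) and the tissue inhibitors of metalloproteinases (Timp) were examined in single-nucleus RNA-seq of the mouse cerebral cortex. Members were taken by symbol alone, by a rule with no measured value, though they were chosen with earlier results of these data known. Of 32285 genes in the matrices 83 qualified: 33 Adam, 19 Adamts, 5 Adamtsl, 22 Mmp and 4 Timp genes. Of these, 77 had at least 1 UMI (unique molecular identifier, each counted as 1 RNA molecule) and 58 had at least 100 over the 4 libraries, and 6 had none. All mice were GCLC-KO, in which floxed Gclc, the gene of the catalytic subunit of the enzyme that starts glutathione synthesis, is deleted by CaMKII-Cre, a driver of forebrain excitatory neurons. The younger group held 2 mice aged 3 months, called 3M-1 and 3M-2, and the older group 2 mice aged 6 months, called 6M-1 and 6M-2. Sorted nuclei of each mouse gave 1 library, and there was no wild-type library, so the data compare ages and cell types within the knockout and not the knockout with its absence. The Cre acts in neurons, and glial nuclei keep their own Gclc. Where 4 values are given below, both 3-month mice come first and both 6-month mice last, each pair in numerical order.

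Mmps are secreted or membrane-bound enzymes that cut collagens, proteoglycans and other proteins outside the cell. Adams are membrane proteins, and those with an active site shed the outer parts of other membrane proteins: Adam10 cuts Notch receptors and the amyloid precursor protein, and Adam17 releases tumour necrosis factor. Adam11, Adam22 and Adam23 lack an active site and instead bind the secreted Lgi proteins at neuronal contacts. Adamts enzymes are secreted, and several cut the proteoglycans aggrecan, brevican and versican of the brain matrix. Adamtsl proteins resemble their non-catalytic part, and the Timps inhibit the enzymes.

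The zinc-binding motif of metzincin proteases, 11 codons long, was searched in the reading frame of the reference annotation (GENCODE M21, GRCm38). It was present in 68 of 21630 protein-coding genes (0.314%), among them all 22 Mmp, 20 of 33 Adam and 13 of 19 Adamts members. A further 5 Adamts members held it with an asparagine codon in place of the glycine codon, a form found in 5 coding genes (0.0231%). The 5 Adamtsl and 4 Timp genes, Adam11, Adam22 and Adam23 did not hold these letters. The sites of members on which the results below turn are shown 5′ to 3′ on the coding strand, with the codons of the conserved histidine, glutamate and glycine residues (or the asparagine that replaces glycine) in capitals.
Adam10: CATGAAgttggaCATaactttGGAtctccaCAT
Adam17: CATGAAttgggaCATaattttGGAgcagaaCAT
Adam33: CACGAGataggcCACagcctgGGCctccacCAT
Adam12: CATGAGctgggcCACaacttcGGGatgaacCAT
Mmp2: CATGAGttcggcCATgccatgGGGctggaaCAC
Mmp12: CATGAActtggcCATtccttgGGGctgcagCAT
Mmp14: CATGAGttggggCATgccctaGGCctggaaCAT
Mmp15: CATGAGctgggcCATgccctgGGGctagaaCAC
Adamts17: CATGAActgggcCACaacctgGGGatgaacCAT
Adamts4: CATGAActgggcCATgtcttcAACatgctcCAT
Adamts9: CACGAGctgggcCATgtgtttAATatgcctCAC
Adamts15: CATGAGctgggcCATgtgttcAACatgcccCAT
Adamts1: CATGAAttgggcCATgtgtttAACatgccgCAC
The last 4 carry the asparagine form. All sites are exonic and coding. In the Mmp and Adam genes other than Adam10 the site lies within a single exon: chr12:21336732-21336764 on the minus strand (exon 12) in Adam17, chr2:131055130-131055162 on the minus strand (exon 11) in Adam33, chr7:133961158-133961190 on the minus strand (exon 11) in Adam12, chr8:92839279-92839311 on the plus strand (exon 8) in Mmp2, chr9:7352914-7352946 on the plus strand (exon 5) in Mmp12, chr14:54437627-54437659 on the plus strand (exon 5) in Mmp14 and chr8:95368585-95368617 on the plus strand (exon 5) in Mmp15. An intron splits the site of Adam10 (chr9:70754296-70761585, plus strand, exons 9 and 10) and of each Adamts gene shown: Adamts17 (chr7:66968898-67002473, plus strand, exons 8 and 9), Adamts4 (chr1:171253210-171253915, plus strand, exons 3 and 4), Adamts9 (chr6:92905285-92908493, minus strand, exons 8 and 9), Adamts15 (chr9:30911255-30911690, minus strand, exons 2 and 3) and Adamts1 (chr16:85799191-85799545, minus strand, exons 3 and 4).

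After the nucleus filter 30515 nuclei remained, with 59262228 to 65894316 UMIs a library. Nuclei were assigned by lists of marker genes that hold no member to excitatory neurons (13248 nuclei), inhibitory interneurons (3515), oligodendrocytes (4462), oligodendrocyte precursors (756), astrocytes (204) and microglia (2140). A further 294 went to rarer types and 5896 (19.3%) to none. Each class held its own markers at their highest summed level, for example 11313 to 16183 CPM (counts per 1000000 UMIs of the class) of 15 microglial markers in microglia against 60.1 to 202 CPM in the other classes. Precursors were less distinct. They held 9252 to 11385 CPM of their own markers, 5249 to 5883 CPM of interneuron markers and 3933 to 4172 CPM of astrocyte markers. Whether mixed nuclei or shared genes account for this was not tested. Gclc stood at 43.5, 35.1, 35.5 and 38.6 CPM over all nuclei, and without a wild-type library its deletion could not be checked. From 12 to 19 barcodes were shared by each pair of libraries. Library 3M-2 had the lowest median depth (5994 UMIs a nucleus against 7035 to 8140), and leaving it out changed many calls below.

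Every one of the 45 members with enough UMIs to test differed between at least 1 main class and the mean of the other 5 (edgeR quasi-likelihood test with the mouse as a block, adjusted p below 0.05 over 14767 genes), and so did 94.5% of all genes tested. The members' share is thus near that of all genes. The low-count filter grouped sums by class, so a gene with enough UMIs in 1 class alone was tested. Members such as Adam3, Adamts4, Adamts15 and Mmp15 entered in this way, and for them a call in that class was nearly fixed beforehand. With the mouse as a block, the p-values measure how far the class differences vary between 4 mice of 2 ages. In precursors 19 members were higher (42.2%, against 20.0% of all genes) and 5 lower (11.1% against 14.3%), and their median difference was 0.68 on the log2 scale, or 0.63 with genes absent from a class held at their detection limit. In microglia 11 were higher (24.4% against 30.6%) and 22 lower (48.9% against 29.1%), with a median of -0.87 (-1.03 with that limit). Higher and lower members numbered 21 and 12 in excitatory neurons (background 35.2% and 30.5%), 20 and 9 in interneurons (32.5% and 26.3%), 18 and 16 in oligodendrocytes (29.3% and 26.6%), and 8 and 10 in astrocytes (14.1% and 16.3%). The log2 medians over all genes lay between -0.22 in astrocytes and 0.02. The levels are sums over nuclei of a class, so they do not tell fewer expressing nuclei from less RNA in each. Highest, lowest and the gene of a class refer below to the main classes alone. Rarer types, with too few nuclei to test, stood higher for some members, and examples are given at the end.

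**Figure D1:**
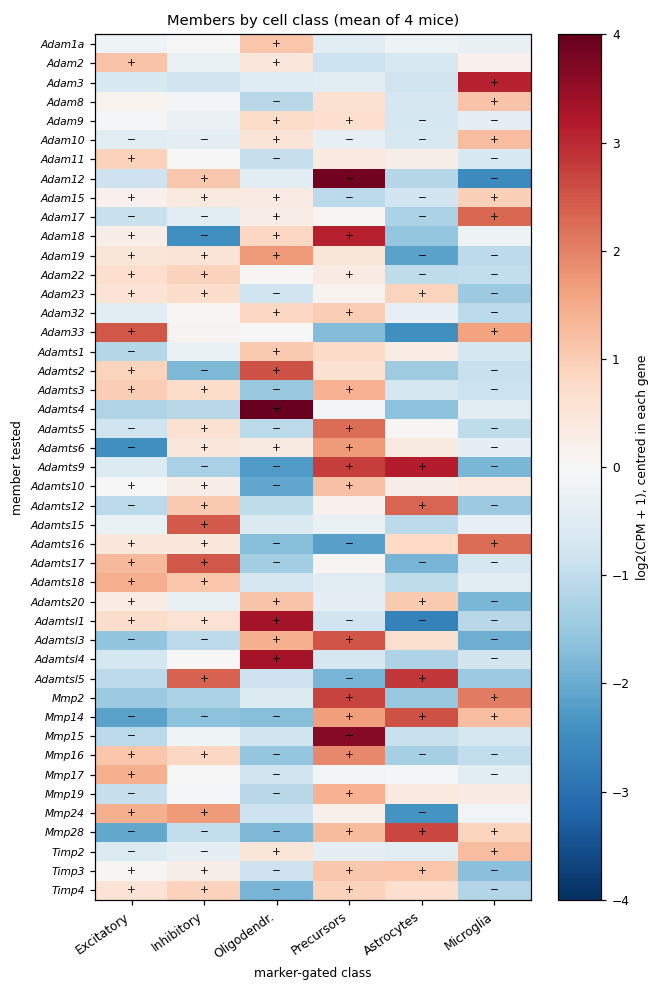
The 45 members tested, by main cell class: colour gives the log2 of (mean CPM of 4 mice + 1), centred within each gene, so that shades compare classes and not genes, and plus and minus signs mark classes called higher or lower (edgeR, adjusted p below 0.05). The darkest fields are Adam12 and Mmp15 in precursors, Adamts4 in oligodendrocytes and Adam3 in microglia.

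Among the shedding enzymes, Adam17 and Adam10 were highest in microglia. Adam17 measured 202, 194, 170 and 168 CPM there, against 44.4 CPM on average in oligodendrocytes, the next class, and 19.2 ± 2.08 (SD, n = 4 mice) in excitatory neurons. Every microglial value lay above every value of another class, and the log2 difference from the other classes was 2.48 ± 0.0959 (SE, adjusted p = 8.31e-19, edgeR). Adam10 stood at 299, 212, 206 and 207 CPM in microglia and 140 ± 21.5 CPM in oligodendrocytes (1.19 ± 0.0774, adjusted p = 1.38e-13), again with no overlap. Adam15 (64.1 ± 10.8 CPM) and Adam8 (6.85 ± 3.82 CPM from 39 UMIs) were also higher in microglia, by 0.82 and 1.62 on the log2 scale (adjusted p = 2.26e-05 and 0.00054, edgeR). In 3M-2, however, Adam8 had 1 UMI of 819274 in microglia, against 125 of 40074200 in excitatory neurons. Its level was thus not higher in microglia of that mouse. Adam9 was instead higher in oligodendrocytes (62.4 ± 9 CPM, log2 difference 1.07) and precursors (60 ± 13.5 CPM, 0.77) and was 28.4 ± 2.56 CPM in microglia.

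Adam12, an enzyme that binds syndecans and integrins, was a precursor gene among the main classes. The few nuclei with fibroblast markers, a rarer type, held more of it (861 CPM from 84 UMIs). Adam12 measured 304, 291, 390 and 282 CPM in precursors, 44.7 CPM on average in interneurons and 2.68 ± 2.7 CPM in microglia. The log2 difference was 4.82 ± 0.215 (adjusted p = 8.02e-17, edgeR). Adam19 was highest in oligodendrocytes, where its 4 values of 67.2, 67.2, 67.6 and 61.6 CPM differed little, and it averaged 28.9 CPM in interneurons (log2 difference 2.39 ± 0.159, adjusted p = 2.42e-13). Adam33 was found in excitatory neurons at 26.8, 37.5, 29.6 and 22.8 CPM, with 15.4 ± 9.42 CPM in microglia and 0 UMIs in astrocytes, which allows up to 4.25 CPM there (adjusted p = 2.73e-12 for excitatory neurons, edgeR). Its microglial values overlapped the neuronal ones in 1 mouse.

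Of the Adams that bind Lgi proteins, Adam22 and Adam11 were highest in neurons. Adam22, the Lgi1 receptor, stood at 326, 336, 341 and 348 CPM in interneurons and 285 ± 22.9 CPM in excitatory neurons, and at 89.2 ± 26.1 CPM in microglia (log2 difference 1.21 for interneurons, adjusted p = 2.32e-11, edgeR). Adam11 was highest in excitatory neurons (54.7, 45.4, 48.2 and 47.4 CPM, log2 difference 1.45, adjusted p = 9.52e-12). Adam23 overlapped between astrocytes (219 ± 73.6 CPM) and interneurons (192 ± 19.9 CPM) and was lowest in microglia (42.3 ± 19.6 CPM). Adam3, best known from sperm, was instead a microglial gene in these nuclei. It gave 11, 12, 34 and 16 UMIs in microglia (9.68, 14.6, 20.5 and 10.6 CPM). Precursors, the next class, averaged 0.312 CPM, and astrocytes had 0 UMIs. At least 1 Adam3 UMI was present in 42 of 1560 and 22 of 580 nuclei of the microglial subsets described below (2.69% and 3.79%), against 0.143% of excitatory nuclei. Median depths were 1558 to 2271 UMIs a microglial nucleus and 8313 to 11906 UMIs an excitatory nucleus. Adam18, another Adam without the motif, was a precursor gene at 52.4, 66.4, 73.5 and 56.5 CPM, with 11.8 CPM in oligodendrocytes (log2 difference 4.33, adjusted p = 1.29e-15).

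The membrane-bound Mmps divided between neurons and glia. Mmp24 was neuronal, at 75.2, 51.6, 51.2 and 55.9 CPM in interneurons and 48.1 ± 9.89 CPM in excitatory neurons, and Mmp17 was highest in excitatory neurons at 62.6, 55.5, 57 and 58.8 CPM with 21.1 ± 1.44 CPM in interneurons. The log2 differences were 2.20 ± 0.159 and 2.12 ± 0.154 (adjusted p = 2.22e-12 and 1.44e-12, edgeR). Among the main classes Mmp15 was low outside precursors. It stood at 47.7, 52.2, 54.8 and 50.2 CPM there and at a mean of 2.69 CPM or less in the other 5, a log2 difference of 4.94 ± 0.227. Mmp16, which has the most UMIs of all members (111465), was also highest in precursors, with 958, 775, 875 and 869 CPM against 488 ± 47.1 CPM in excitatory neurons. Mmp14, the activator of Mmp2, was a gene of astrocytes (26.6 ± 8.28 CPM from 18 UMIs), precursors (13.9 ± 6 CPM) and microglia (10.2 ± 6.38 CPM), with 0.0795 CPM in excitatory neurons. The differences of these 3 classes were 4.25, 3.24 and 2.48 on the log2 scale, all with adjusted p of 1.57e-07 or less in edgeR.

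Of the secreted gelatinases, Mmp2 was found in precursors (11, 20, 11 and 10 UMIs, 10.3, 31.6, 13.7 and 15.7 CPM) and microglia (14, 8, 19 and 17 UMIs, 12.3, 9.76, 11.4 and 11.3 CPM). Oligodendrocytes averaged 0.946 CPM, and astrocytes had none (up to 4.25 CPM). Both classes passed the edgeR test with adjusted p of 3.15e-10 and 2.57e-09, and their own ranges overlapped. Mmp9 was not seen in microglia: 0 of 580 and 0 of 1560 nuclei of the 2 microglial subsets had a UMI, which allows shares of up to 0.517% and 0.192% (limits cover counting error only). Over all microglia the limit is 0.586 CPM, which is above the levels of 0.494 ± 0.0668 CPM in excitatory neurons (75 UMIs in 71 nuclei) and 0.49 ± 0.159 CPM in interneurons (15 UMIs), so a difference between these classes was not detectable at this depth. Mmp3 had no UMI in any library. Mmp28 was highest in astrocytes at 50.1, 14.7, 44.1 and 23.9 CPM, from 3 to 10 UMIs a mouse (log2 difference 3.83, adjusted p = 4.27e-07, edgeR).

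**Figure D2:**
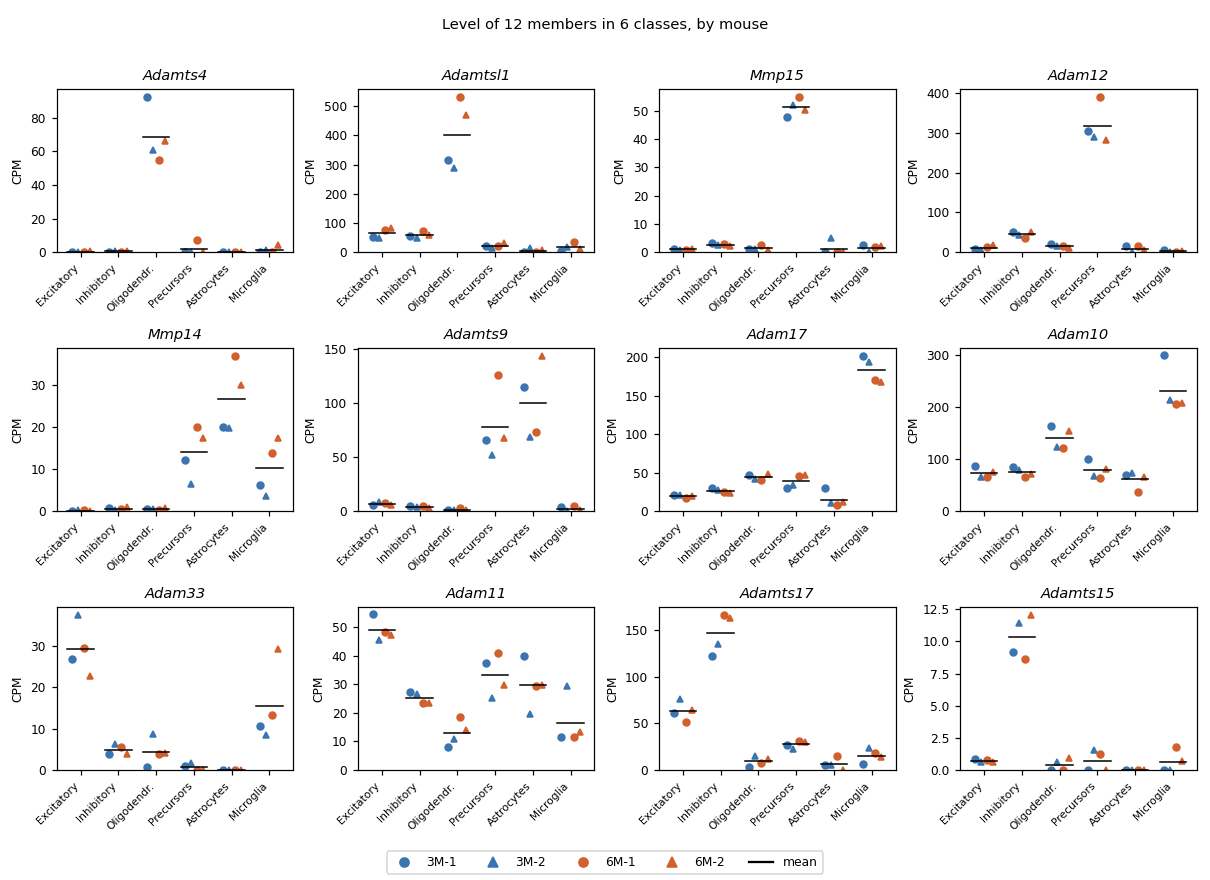
CPM of 12 members in the 6 classes, with 1 symbol a mouse and a line at the mean of 4 mice, on linear axes that start at 0. The points of Adamts4 and Adamtsl1 in oligodendrocytes, Mmp15 and Adam12 in precursors and Adam17 and Adam10 in microglia lie above those of all other classes, and those of Adamts9 in astrocytes and precursors overlap.

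Several Adamts enzymes were highest in glia. Adamts4, an aggrecanase, was an oligodendrocyte gene at 92.3, 60.9, 54.7 and 66.5 CPM. Precursors, the next class, averaged 1.87 CPM, and astrocytes had 0 UMIs. Among the main classes Adamts9 marked astrocytes (115, 68.8, 73.5 and 144 CPM, from 10 to 24 UMIs) and precursors (65.5, 52.2, 126 and 67.5 CPM). These overlapped each other, and it was 6.83 ± 1.15 CPM or less in the other main classes. The few nuclei with fibroblast markers, a rarer type, held 236 CPM from 23 UMIs. Adamts5, another aggrecanase, was highest in precursors (12.2, 15.8, 12.5 and 18.8 CPM, log2 difference 3.25 ± 0.404, adjusted p = 1.82e-07, edgeR), as was Adamts3 (52.5 ± 8.4 CPM, 1.64). Of enzymes that trim procollagens, Adamts2 led in oligodendrocytes at 98.1, 52.3, 82.9 and 59.5 CPM with 22.5 CPM in excitatory neurons (3.42 ± 0.208, adjusted p = 3.38e-14). Adamts20 was higher in oligodendrocytes (51 ± 10.4 CPM) and astrocytes (48.7 ± 27 CPM).

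In contrast, Adamts17 and Adamts15 were highest in interneurons. Adamts17 measured 122, 136, 167 and 163 CPM there against 63.3 CPM on average in excitatory neurons (log2 difference 3.2 ± 0.143, adjusted p = 9.28e-17, edgeR). Adamts15, which cuts versican, stood at 9.16, 11.4, 8.66 and 12.1 CPM from 70 to 84 UMIs a mouse. Excitatory neurons averaged 0.715 CPM, and astrocytes had no UMI. Adamts18 was highest in excitatory neurons, with 11.3, 14.9, 8.99 and 9.61 CPM. Microglia had Adamts16 at 56.3, 34.2, 48.7 and 28.6 CPM (2.64 ± 0.261, adjusted p = 9.02e-10), and astrocytes averaged 14.8 CPM with a value of 41.9 CPM in 6M-2. Adamts12 was called higher in interneurons (58, 9, 63 and 47 UMIs) and in astrocytes, where it rested on 5, 1, 1 and 4 UMIs.

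Adamtsl1 and Adamtsl4 led in oligodendrocytes, Adamtsl3 in precursors and Adamtsl5 in interneurons and astrocytes. Adamtsl4 measured 115, 95.4, 128 and 154 CPM in oligodendrocytes and 11.5 CPM in interneurons (log2 difference 4.31 ± 0.145, adjusted p = 3.3e-20, edgeR), and Adamtsl1 measured 316, 287, 530 and 469 CPM with 64.3 CPM in excitatory neurons (4.15 ± 0.136, adjusted p = 1.57e-20). Adamtsl1 (chr4:85514172-86428385) overlaps Sh3gl2 on the same strand of chromosome 4, and reads of the shared span may be hard to assign. Adamtsl3 stood at 36.5, 38, 43.6 and 50.2 CPM in precursors and averaged 19.4 ± 13.4 CPM in oligodendrocytes. Adamtsl5 in interneurons was even between mice (17.8, 19.1, 18.6 and 15.4 CPM), with no UMI in precursors. In astrocytes 13 of its 19 UMIs came from 3M-2, the library whose astrocytes held most RNA of 8 spiny neuron markers (2250 CPM against 426 to 1066); their part in the Adamtsl5 value was not tested.

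The inhibitors followed different classes. Timp2, which also binds Mmp14, was highest in microglia (38.7, 59.8, 76.4 and 74.4 CPM) with 36 ± 7.34 CPM in oligodendrocytes, a log2 difference of 1.28 ± 0.161 (adjusted p = 8.86e-08, edgeR). Timp3, the inhibitor of Adam17 and of Adamts enzymes, was highest in astrocytes (125 ± 1.24 CPM) and precursors (122 ± 14.7 CPM) and lowest in microglia (17.1 ± 5.41 CPM), where it was lower by a log2 difference of -2.42 (adjusted p = 2.18e-12). Timp4 had 96.3 ± 24.2 CPM in interneurons, 95.8 ± 25.9 in precursors, 80.3 ± 25.6 in astrocytes and 73.1 ± 16.8 in excitatory neurons. It had 21.6 ± 12.5 CPM in microglia and 13 ± 8.93 CPM in oligodendrocytes. These SDs are between mice, and all classes come from the same mice, so the SDs do not compare classes within a mouse. Timp1 was sparse in every class. It had 1.91 ± 0.239 CPM in excitatory neurons (289 UMIs), 1.34 ± 0.893 in interneurons (39), 1.02 ± 1.23 in precursors (3), 0.332 ± 0.664 in microglia (2) and 0.295 ± 0.432 in oligodendrocytes (4), and astrocytes had none, which allows up to 4.25 CPM. Timp1, Timp3 and Timp4 lie opposite the synapsin genes Syn1, Syn3 and Syn2, and whether the counting used strand is not given in the sources used here, so reads of these pairs may not be separable. Mmp12 likewise lies opposite Mmp1b.

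Within excitatory neurons 34 of 40 members tested differed between at least 1 subclass and the others (background 67.0% of 14920 genes). Layer 4 had 7 members higher and 18 lower, against 20.2% and 19.2% of all genes, and layer 6b had 13 and 5 (11.2% and 9.67%). The higher and lower counts were 14 and 11 in layer 2/3 (19.7% and 16.9%), 10 and 4 in layer 5 (12.1% and 7.04%), 9 and 2 in near-projecting (9.83% and 7.76%) and 7 and 16 in layer 6 corticothalamic neurons (18.0% and 18.3%). Near-projecting and layer 6b counts fell to 7 and 11 members without the mouse as a block, a setting whose share of all genes is not reported here.

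Adam33 was a layer 4 gene. It stood at 110, 106, 91.8 and 86.9 CPM in layer 4 and averaged 30.3 CPM in layer 2/3, a log2 difference of 3.13 ± 0.104 from the other subclasses (adjusted p = 5.4e-19, edgeR). Adam9 was modestly higher in layer 4 too (46.3, 46.6, 65 and 61.2 CPM, 0.91). The neuronal Mmps divided by depth: Mmp17 marked layer 6 corticothalamic neurons (129, 100, 111 and 99.4 CPM against 62.8 CPM in layer 5, 1.31 ± 0.0624), and Mmp16 marked layer 6b (1497, 1297, 1234 and 1418 CPM against 713 CPM in layer 6 corticothalamic neurons, 1.62 ± 0.0644). Their adjusted p were 6.9e-16 and 3.07e-17 in edgeR. Timp3 led in layer 2/3 at 74.5, 128, 121 and 110 CPM (1.38 ± 0.0591, adjusted p = 2.24e-16).

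Layer 2/3 was also highest in Adamts16 (22.8, 19.1, 23.4 and 36.2 CPM) and had Adamts9 at 11.5, 17.1, 12.9 and 14 CPM. Adam12, low in excitatory neurons as a whole, was highest in layer 5 at 13, 8.58, 18.9 and 34.7 CPM, with 10.2 CPM in layer 2/3. Adamts2 and Adamts18 were each higher in both layer 2/3 and layer 5, and the ranges of these layers overlapped. The leading genes of near-projecting neurons were Adamts18 (16.7, 17.2, 25.7 and 12 CPM) and Adam18 (11.9, 11.4, 15.1 and 19.5 CPM), which overlapped layer 5 as well. Adamts1 was higher in layer 6b, on 22, 12, 3 and 4 UMIs. Adam2 was called higher in layers 2/3 and 4, and in each it lay above the mean of the other subclasses in 4 of 4 mice. Its level was highest in 3M-2, whose 51.9 and 52.8 CPM stood against 7.75 to 25.9 CPM in the other mice.

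**Figure D3:**
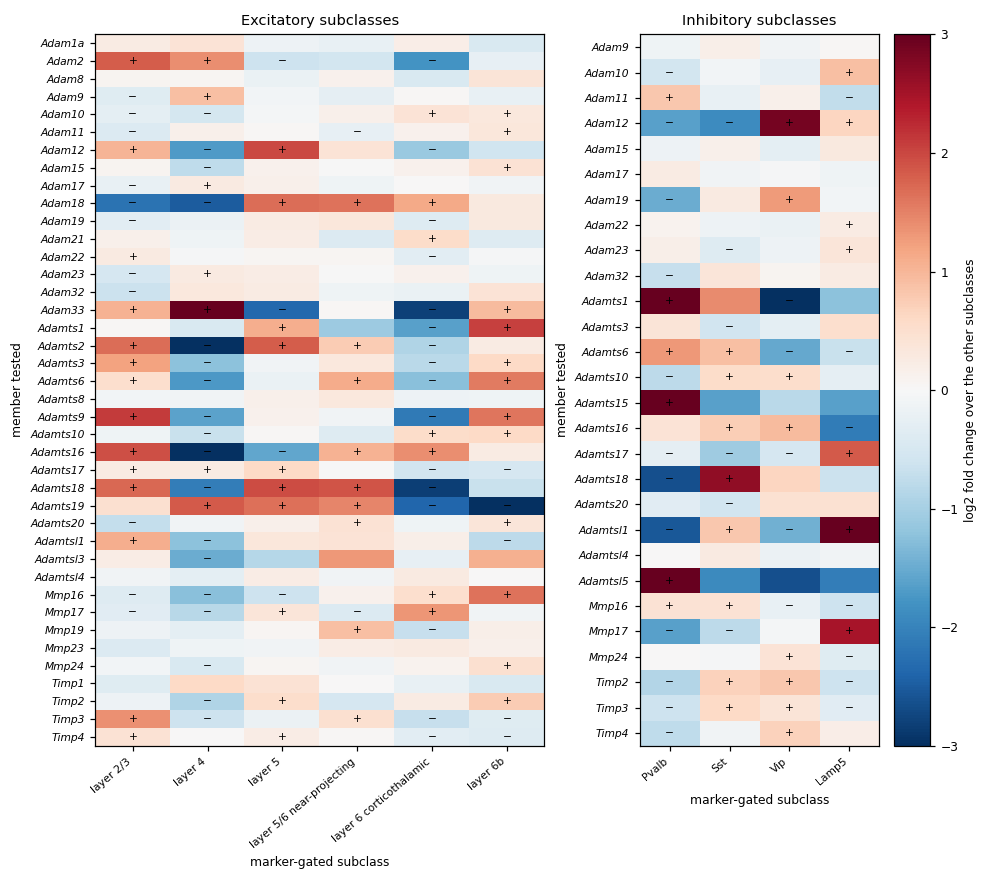
Members tested in the excitatory and inhibitory subclasses: colour gives the log2 fold change of a subclass over the mean of the others, limited to 3 in either direction, and plus and minus signs mark calls (edgeR, adjusted p below 0.05). Adam33 in layer 4, Mmp17 in layer 6 corticothalamic neurons, Adamtsl5 and Adamts15 in Pvalb and Adamtsl1 in Lamp5 nuclei are among the fields of strong excess.

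Among interneurons 24 of 28 members tested differed in at least 1 subclass (background 53.5% of 11343 genes). Higher and lower members numbered 6 and 12 in Pvalb nuclei (20.2% and 19.7% of all genes), 8 and 6 in Sst (11.9% and 9.59%), 8 and 5 in Vip (12.5% and 10.4%) and 7 and 7 in Lamp5 nuclei (13.7% and 12.5%). Without the mouse as a block 8 members were called in Vip nuclei, and the share of all genes in that setting is not reported here. Adamtsl5 and Adamts15 were Pvalb genes, the class of fast-spiking cells often wrapped in perineuronal nets. Adamtsl5 measured 61.2, 55.1, 54.4 and 44.3 CPM in Pvalb and 0.531 CPM in Sst nuclei, the next subclass (log2 difference 6.64 ± 0.26). Adamts15 measured 20.8, 30, 19.9 and 33.2 CPM with 2.07 CPM in Vip nuclei (4.04 ± 0.297). Both genes passed the low-count filter through their UMIs in Pvalb nuclei alone, so their calls there were nearly fixed beforehand. Adamts1 (5.94, 8.57, 9.71 and 15.3 CPM) and Adamts6 (82.6, 67.3, 144 and 117 CPM) were higher in Pvalb nuclei too, the latter beside 83.6 CPM in Sst nuclei. The proteoglycan genes Acan and Bcan, fixed as genes of the same pathway, led in Pvalb nuclei as well (16, 14.1, 14.6 and 11.6 CPM for Acan and 79, 100, 88.8 and 77 CPM for Bcan). Of 40 such listed genes tested, 12 were higher and 15 lower in Pvalb nuclei (30% and 37.5%, against 20.2% and 19.7% of all genes). The leading listed genes of Lamp5 nuclei were Hapln1, Vcan and Reln.

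Other interneuron subclasses had other members. Lamp5 nuclei had Adamtsl1 at 176, 202, 228 and 207 CPM (60.9 CPM in Sst), Mmp17 at 59.7, 64.8, 59.5 and 85.1 CPM (16.9 in Vip) and Adamts17 at 277, 348, 428 and 459 CPM (123 in Pvalb). All 3 lay above every other interneuron value, with log2 differences of 3.15, 2.47 and 1.84 and adjusted p of 3.69e-14, 2.89e-13 and 1.27e-17 in edgeR. Vip nuclei led in Adam12 (186, 185, 112 and 140 CPM against 52.8 in Lamp5, 2.88 ± 0.164, adjusted p = 8.86e-15). Sst nuclei led in Adamts18 (23.7, 23.5, 25.6 and 18.4 CPM against 7.74 in Vip, 2.65 ± 0.342). Adam22 and Adam23 varied little: in Lamp5 nuclei they were higher by 0.24 and 0.37 on the log2 scale.

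The fixed list of 51 other genes of the pathway held substrates, shed proteins, maturation factors and Lgi partners, and 49 were tested between classes. In microglia 8 were higher and 31 lower (16.3% and 63.3%, against 30.6% and 29.1% of all genes), led upward by Rhbdf2, the partner that carries Adam17 to the surface (17.6, 9.76, 11.4 and 17.9 CPM against 0.301 CPM or less elsewhere), Notch2 (129, 100, 146 and 139 CPM, 3.44) and Tgfa, an Adam17 substrate (111, 64.7, 65.6 and 69.1 CPM, 2.66), which was higher still in precursors. Precursors led in the proteoglycans Vcan (850, 905, 971 and 1113 CPM) and Acan (33.7, 39.6, 13.7 and 25.1 CPM), and astrocytes in Lgi4 and Bcan (651, 712, 632 and 526 CPM). Oligodendrocytes led in Hapln2, a link protein of nodes of Ranvier (515, 399, 366 and 358 CPM), interneurons in Reln and excitatory neurons in Nrg1 and Nrg3. Higher and lower genes of the list numbered 23 and 11 in excitatory neurons (all genes 35.2% and 30.5%), 20 and 15 in interneurons (32.5% and 26.3%), 21 and 21 in oligodendrocytes (29.3% and 26.6%), 19 and 14 in precursors (20.0% and 14.3%) and 18 and 16 in astrocytes (14.1% and 16.3%).

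Microglia were divided by the number of disease-associated microglia (DAM) markers with a UMI: 580 nuclei with at least 2 of 13 (121, 68, 215 and 176) and 1560 others. Of these nuclei, 246 lay at the limit with exactly 2 markers and 601 just below it with 1. None of 15 members tested differed (edgeR and DESeq2, adjusted p below 0.05), while 3.67% of 9129 genes did, and 2 had an unadjusted p below 0.05 (Adamts10 and Adam10). Adam17 measured 264, 153, 185 and 182 CPM in DAM-marker-high nuclei and a mean of 177 CPM in the others (log2 difference 0.17 ± 0.148, adjusted p = 0.686, edgeR). Adam10 measured 194, 190, 199 and 191 CPM against a mean of 247, lower in all 4 mice (-0.32 ± 0.142, adjusted p = 0.322), and Timp2 45.6, 60.3, 85.7 and 76 CPM against 60.1 (0.17 ± 0.17). Of the fixed list Aplp2 was higher (210, 148, 195 and 237 CPM, 0.75 ± 0.127, adjusted p = 0.00633).

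Mmp12, macrophage elastase, was too sparse for that test and was seen in few nuclei. DAM-marker-high microglia held 2, 3, 20 and 0 Mmp12 UMIs, in 7 of 580 nuclei (1.21%), and 17 of the 25 came from a single nucleus of 6M-1. Other microglia, whose nuclei were shallower (medians of 1449 to 2139 UMIs against 2030 to 2624), held none in 1560 nuclei, which allows a share of up to 0.192%. With the others held at a limit of 3 UMIs over the group, the summed level was 17.3-fold higher in DAM-marker-high nuclei. This fold takes the 25 UMIs as exact and so is not a minimum. Without 6M-1, 5 UMIs remained and the fold was 3.65. A further 14 UMIs, 10 of them in a single nucleus, were in 5 of the 5896 nuclei assigned to no class. The UMIs of DAM-marker-high nuclei came from both 3-month mice and 1 of the 6-month mice. Excitatory nuclei, which should lack the gene, had a UMI in 3 of 13248 (0.0226%). When nuclei were thinned to 1000 UMIs before their DAM markers were counted, with shallower nuclei left out, Adam23, Mmp16 and Adam22 were called lower in DAM-marker-high microglia, as 15.7% of all genes were called in either direction. Excitatory marker RNA was lower there in the same comparison (238, 551, 267 and 271 CPM against 374, 840, 701 and 722), and its part in these calls was not tested.

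Between 3 and 6 months no member passed the threshold in any class, out of 57 tested in excitatory neurons, 46 in interneurons, 31 in oligodendrocytes, 32 in precursors, 8 in astrocytes and 27 in microglia. With 2 mice an age this test called few genes of any kind (0.0% of 19035 in excitatory neurons, 0.0% in interneurons, astrocytes and microglia, 0.00774% in oligodendrocytes and 0.0105% in precursors). DESeq2 called no member either. Of all genes it called 47 in excitatory neurons, 2 in interneurons, 14 in oligodendrocytes, 5 in microglia and 0 in precursors and astrocytes. An unadjusted p below 0.05 was reached by 8 (14.0%), 7 (15.2%), 6 (19.4%), 3 (9.38%), 2 (25%) and 5 (18.5%) members in that order of classes, against 5.65%, 3.94%, 5.49%, 4.75%, 4.11% and 5.03% of all genes. The median log2 differences of the members were -0.00, 0.06, 0.11, 0.08, 0.11 and 0.20, and those of all genes were within -0.02 to 0.02. The 51 listed genes held none called. In simulated counts of excitatory neurons and microglia, the same test found 81 and 61 of 100 genes changed 2-fold and all of those changed 4-fold. It made 3 and 10 false calls. The simulation changed well-counted genes only, with a fixed spread and no library that deviated from the others. It therefore does not tell how large a difference the test could miss in these data.

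In oligodendrocytes Adamts1 and Adamtsl3 had the lowest p-values. Adamts1, a proteoglycan-cutting enzyme, gave 13, 7, 102 and 58 UMIs in 11, 6, 91 and 50 nuclei, that is 5.02, 4.02, 26.9 and 17.7 CPM. Adamtsl3 gave 10.4, 6.32, 25.6 and 35.1 CPM. Both 6-month values exceeded both 3-month values for each gene, by log2 differences of 2.18 ± 0.386 (SE) for Adamts1 and 1.70 ± 0.34 for Adamtsl3, with adjusted p of 0.203 and 0.307 in edgeR. With the labels' replicate number as a block they passed (adjusted p = 5.75e-04 and 0.0028, edgeR), as 0.387% of all genes did. The labels do not say what same-numbered mice share, and their deviations correlated at -0.112 in this class. They also passed with no filter on low counts (adjusted p = 2.87e-05 and 2.54e-04), as 0.47% of all genes did. The differences between the mice numbered 1 and between those numbered 2 were 2.38 and 2.05 for Adamts1 and 1.28 and 2.41 for Adamtsl3. RNA of 9 fibroblast markers also stood higher at 6 months in oligodendrocyte nuclei (2.7, 2.9, 9.2 and 10.4 CPM), as did that of 9 excitatory markers (224, 416, 447 and 443 CPM). The few fibroblast nuclei (35) held 74 UMIs of Adamtsl3 and fewer than 3 of Adamts1, and the part of such RNA in these differences was not tested.

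**Figure D4:**
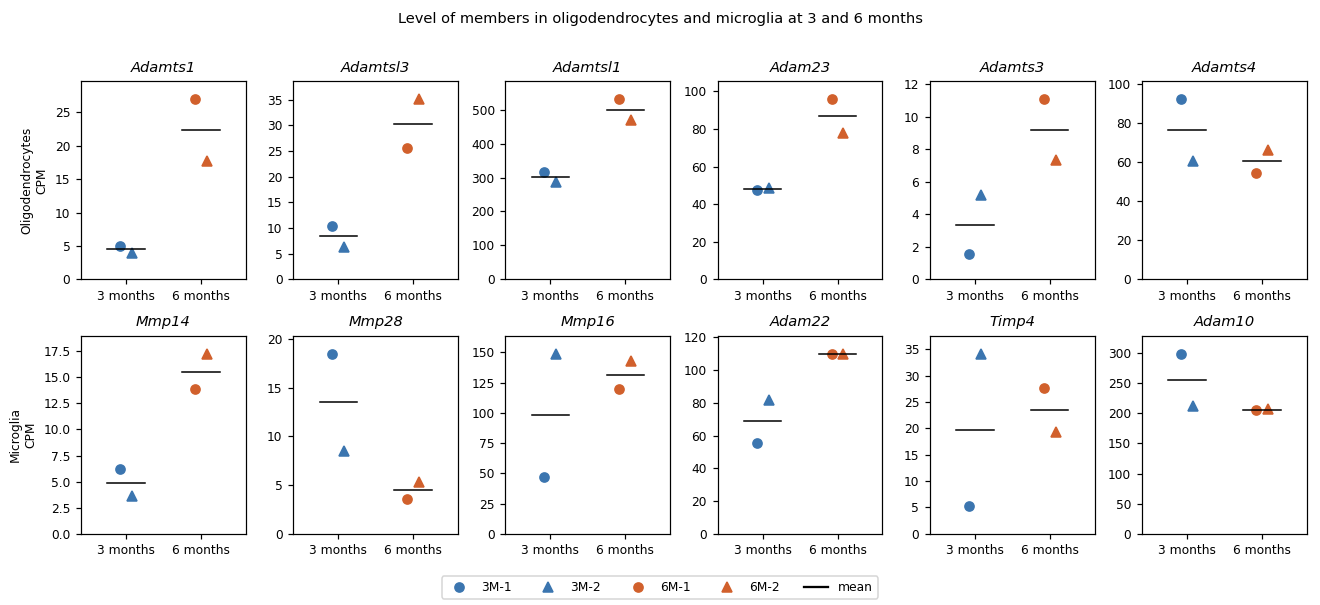
CPM of 6 members in oligodendrocytes (upper panels) and 6 in microglia (lower panels) by age, with 1 symbol a mouse and a line at the mean of 2 mice, on linear axes that start at 0. Both 6-month mice lie above both 3-month mice for Adamts1, Adamtsl3, Adamtsl1, Adam23 and Adamts3 in oligodendrocytes, and for Timp4 and Mmp16 in microglia the 3-month mice lie farthest apart.

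Adamtsl1 had higher values in both 6-month mice in oligodendrocytes, excitatory neurons, interneurons and precursors, and in microglia the ages overlapped. In oligodendrocytes it measured 316, 287, 530 and 469 CPM (log2 difference 0.64, adjusted p = 0.738, edgeR) and in excitatory neurons 51.9, 48.6, 75.3 and 81.4 CPM (0.61, adjusted p = 0.675). Its differences between same-numbered mice were 0.75 and 0.71 in oligodendrocytes and 0.54 and 0.74 in excitatory neurons. Within the excitatory neurons it came closest to the threshold in near-projecting nuclei, at 30.5, 42.3, 108 and 90.2 CPM (1.48, adjusted p = 0.0507), and layers 2/3, 5 and 6b showed the same order of ages, while the log2 difference was 0.20 in layer 4 and 0.08 in layer 6 corticothalamic neurons. No member passed in any of the 12 subclasses, where at most 0.0185% of all genes did.

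Adam23 also had higher values in both 6-month mice in 5 of 6 classes: 144, 112, 270 and 166 CPM in excitatory neurons, 183, 177, 221 and 188 in interneurons, 47.5, 48.8, 95.8 and 78.1 in oligodendrocytes, 150, 162, 272 and 293 in astrocytes and 26.4, 31.7, 70.4 and 40.5 in microglia. Adjusted p lay between 0.603 and 0.997 in edgeR. The classes come from the same 4 mice and so do not repeat the comparison. In precursors, with 107, 141, 156 and 119 CPM, the ages overlapped. In excitatory neurons Adam12 was higher (8.34, 5.74, 12.4 and 18.1 CPM, 1.08, adjusted p = 0.709) and Adam19 lower at 6 months (31.9, 35.3, 19.5 and 24.8 CPM, -0.63, adjusted p = 0.788). By subclass the log2 difference of Adam12 ranged from -1.32 in layer 4 to 1.31 in layer 5. Layer 2/3 held 583, 871, 461 and 303 nuclei and layer 5 held 322, 428, 471 and 512. The part of this make-up in the age differences of pooled excitatory neurons was not tested. Interneurons had Timp3 (49.9, 60.2, 82.5 and 75.3 CPM, 0.53) and Timp4 (60.9, 101, 114 and 109 CPM, 0.48) higher, each with an adjusted p of 0.981.

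In microglia Mmp14 was higher and Mmp28 lower in both 6-month mice. Mmp14 gave 7, 3, 23 and 26 UMIs (6.16, 3.66, 13.8 and 17.3 CPM, log2 difference 1.6 ± 0.481, between same-numbered mice 1.1 and 2.04). Mmp28 gave 21, 7, 6 and 8 UMIs (18.5, 8.54, 3.61 and 5.31 CPM, -1.63 ± 0.558, between same-numbered mice -2.28 and -0.70). Both had an adjusted p of 0.942 in edgeR. Timp2 followed the order 38.7, 59.8, 76.4 and 74.4 CPM (0.63, adjusted p = 0.974), and Adam17 was 202, 194, 170 and 168 CPM (-0.23, adjusted p = 0.974). Adam22 stood at 55.5, 81.8, 110 and 110 CPM in microglia; the excitatory markers there measured 355, 775, 621 and 651 CPM, and their part was not tested.

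**Figure D5:**
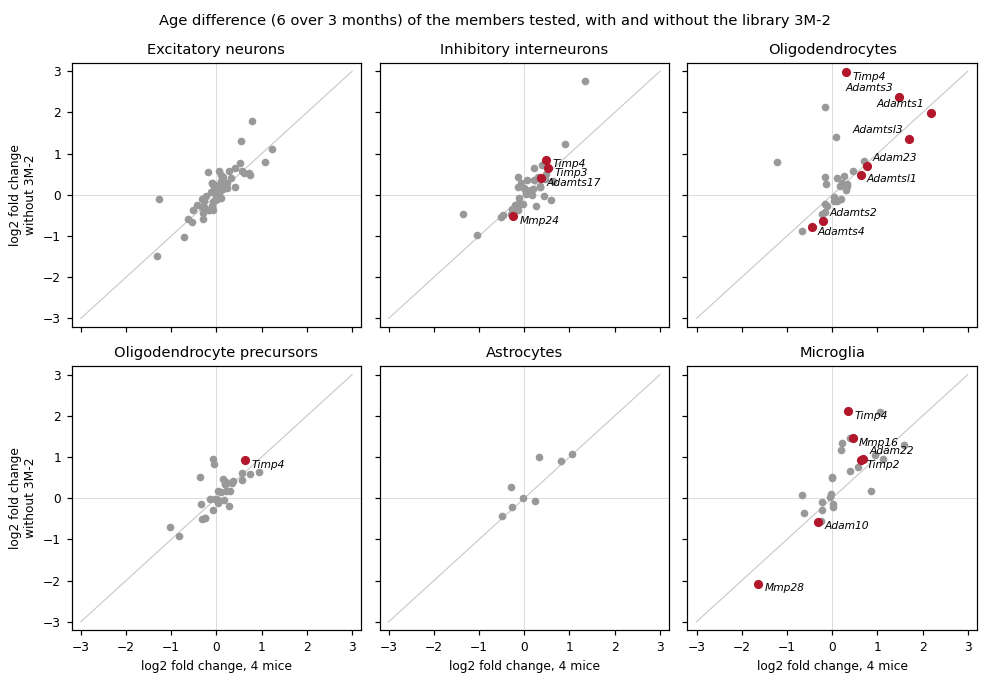
Log2 fold change of 6 over 3 months of each member with 4 mice (x axis) and without 3M-2 (y axis), by class, with the line of equal values. Red, named points are members called without 3M-2, and among them Timp4 in oligodendrocytes and microglia and Mmp16 in microglia lie far above the line.

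The calls depended on which 3-month mouse was left out. Microglia of 3M-1 held 16183 CPM of the microglial markers, against 11313 to 11420 CPM in the other mice. The calls given next have 3M-1 as their only 3-month mouse, since they leave out 3M-2. Without it, 4 members passed in interneurons, 8 in oligodendrocytes, 1 in precursors, 6 in microglia and 0 in excitatory neurons and astrocytes, against 9.88%, 9.71%, 1.35%, 9.77%, 4.67% and 0.987% of all genes. In microglia these were Mmp16 (46.7, 149, 120 and 143 CPM, log2 difference 1.45 without 3M-2 and 0.45 with it), Timp4, Adam22 and Timp2 upward and Adam10 and Mmp28 downward. Mmp16 and Timp4 (5.28, 34.2, 27.7 and 19.3 CPM) were both lowest in 3M-1 and highest in 3M-2, as were the excitatory markers in microglia (355, 775, 621 and 651 CPM), and the part of such RNA was not tested. In oligodendrocytes they were Adamts1, Adamtsl3, Adamtsl1, Adam23, Adamts3 and Timp4 upward and Adamts4 and Adamts2 downward. In interneurons they were Timp3, Timp4, Adamts17 and, downward, Mmp24, and in precursors Timp4. Without 3M-1, Adam2 passed as lower at 6 months in excitatory neurons, interneurons and oligodendrocytes; its excitatory values of 8.97, 33.1, 10.5 and 7.15 CPM are high in 3M-2 alone. Without 3M-1, Adamts12 also passed in interneurons, and Adamts1, Adamtsl1 and Adamtsl3 in oligodendrocytes, and without 6M-1 Adamtsl3 did. The share of all genes called without 3M-1 was 0.208% in both kinds of neuron and 0.433% in oligodendrocytes, and without 6M-1 it was 0.0841% in oligodendrocytes.

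Whether a member's age difference depended on cell class changed with the processing. None passed with the default filter (0 of 45, test of the age by class terms in edgeR, background 0.0474%), and 6 had an unadjusted p below 0.05, led by Adam12 (adjusted p = 0.297) and Adamts1 (0.479). With no filter on low counts Adam12, Adamts1 and Adamts2 passed (adjusted p = 1.2e-07, 4.88e-04 and 0.0432, edgeR), as 1.24% of all genes did, and with the stricter gate Adam12 passed (0.0457), as 0.169% did. In layer 6b neurons the values of Adamts1 were lower at 6 months (12.1, 8.31, 2.32 and 2.16 CPM, adjusted p = 0.997). Without 3M-2, Mmp16 passed this test, as 1.56% of all genes did.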

How the data were processed

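Nuclei were isolated from cortex by detergent lysis, sorted as DAPI-positive and sequenced as 10x 3′ libraries, 1 a mouse. The study took the cortical regions in which it found rod-shaped microglia to be abundant. The deposited values were raw UMI counts a gene and nucleus, which the authors obtained with Cell Ranger (7.0.0 per the file headers) on mm10. Strand use in counting, and the annotation, are not given in the sources used here, and the authors' later Seurat steps were not used. Of 30784 deposited nuclei, 30515 with at most 7000 genes and 1% mitochondrial UMIs were kept (1 fewer than the study states). Clec7a was not analysed here, and not every overlap of a member with another gene is reported here.

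A nucleus was gated to the list of which it had the largest share of markers with a UMI, when that share was at least 0.4 and the runner-up's was under 0.45 and at most 0.75 times the best. Neurons were divided into subclasses by standardized marker levels. These limits were set after marker levels, not members, had been seen. Nuclei with mixed markers were left ungated, which stands in for a doublet caller. No file maps nuclei to published clusters, so class names rest on these markers and may differ from the study's. Members, the pathway list and markers were chosen with earlier results of these data known.

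UMIs were summed per library and class (at least 10 nuclei) and fitted in edgeR 4.0.16 (R 4.3.3) with TMM factors and the quasi-likelihood test. The default low-count filter grouped the sums by the classes or ages compared. Classes and subclasses were compared with the mean of the others with the mouse as a block, and 6 with 3 months without a block. Benjamini-Hochberg adjustment covered every gene of a fit, and 0.05 was the threshold. CPM are counts per 1000000 of a class's UMIs. Standard errors were derived from the test. Limits for 0 assume 3 UMIs, and intervals are 95% exact. Microglia with at least 2 of 13 DAM markers were compared with the others in the same mouse. The age by class test used all class terms.

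Alternatives were DESeq2 1.42.0, size factors, no filter, a stricter gate, thinning to 1000 UMIs, the replicate block and leaving out each mouse. Named members were up to 5 a class with the largest difference among those called and higher in 4 of 4 mice, 34 fixed members, and any called for age. The replicate block is the replicate number in the labels. Deviations of same-numbered mice correlated at -0.133 to 0.0256 over the classes (2 pairs). Identifiers were matched to GENCODE M21 (32158 of 32285). In simulated counts with a fixed spread the class test found 96 of 100 genes changed 2-fold in microglia, with 15 false calls.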

Additional observations from a re-analysis of the deposited data

How the results depend on the processing

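With the replicate block (the labels' replicate number) 2 members passed for age in oligodendrocytes, Adamts1 and Adamtsl3, as they did with no filter on low counts (2). The crossed pairing, chosen after seeing the data, gave 2 as well, and the share of all genes in that setting is not reported here. The block changed no other call of a member for age in the 6 classes. For the age by class test 3 members passed with no filter (Adam12, Adamts1 and Adamts2, with 1.24% of all genes) and 1 with the stricter gate (Adam12, with 0.169%). Without 6M-1, chosen after seeing the data, the fold of Mmp12 in DAM-marker-high microglia over the limit of the others was 3.65 (17.3 with 4 mice). Near-projecting neurons had 19 members called with no filter and 7 with no replicate block, layer 6b 11 and Vip nuclei 8 with no replicate block. DAM-marker-high microglia had 2 with no filter and 3 with thinning. For these subclass and microglial counts the share of all genes is reported here for thinning only (15.7%). Leaving out 1 mouse at a time, members called for age ranged over 0 to 1 in excitatory neurons, 0 to 4 in interneurons, 0 to 8 in oligodendrocytes, 0 to 1 in precursors and 0 to 6 in microglia, the age by class count over 0 to 1, the median age difference over 0.058 to 0.155 in interneurons and over -0.23 to 0.14 in astrocytes. The age difference turned its direction for Adamts2 in oligodendrocytes without 3M-1 (0.44) and without 6M-2 (0.025), over a range of -0.63 to 0.44, and without 3M-1 for Mmp16 (range -0.18 to 1.45) and Timp4 (-0.53 to 2.11) in microglia and Mmp24 in interneurons (-0.51 to 0.073). The causes were not tested. With 1 mouse left at an age, that mouse was assumed to vary like the others. Of 625 alternatives for the leading members of a class, 607 kept the direction and the call, and 18 kept the direction but lost the call. In astrocytes (204 nuclei) 8 members could be tested for age, and the class difference of Adamts12 rests on 11 UMIs. A further 4601 excitatory nuclei and 327 precursor nuclei lay within 1 marker of the edge of their gate.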

Other observations

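Rarer cell types held too few nuclei for a test, and their values are given as sums over the 4 mice with exact Poisson intervals that cover counting error only. In 35 nuclei with fibroblast markers, Adam12 gave 84 UMIs (861 CPM, 95% interval 687 to 1066) and Adamtsl3 gave 74 UMIs (759 CPM, 596 to 953), of which 40 came from a single nucleus. Timp3 (41 UMIs, 420 CPM), Adamts12 (40, 410 CPM), Adamts9 (23, 236 CPM) and Adamts2 (22, 226 CPM) were also present there. For all of these genes the fibroblast level lay above the mean of every main class. In 147 nuclei with markers of spiny neurons (41, 61, 45 and 0 by mouse) Adamts3 gave 221 UMIs, or 178 CPM. In 11 nuclei with T cell markers (0, 0, 5 and 6 by mouse, so at 6 months only) Adam19 gave 16 UMIs, or 997 CPM. Both levels were also above the mean of every main class. In 52 nuclei with mural markers Timp3 gave 14 UMIs, and 17 endothelial nuclei (0, 1, 5 and 11 by mouse) held 3 UMIs of Adamts1. Mmp28 and Adam15 each gave 7 UMIs in those endothelial nuclei (243.8 CPM, 98 to 502.3). In 25 nuclei with granule-type neuron markers Mmp24 gave 13 UMIs (284.5 CPM, 151.5 to 486.5). Fibroblast nuclei held 5 UMIs of Adamts15 (51.3 CPM, 16.7 to 119.7). These levels lay above those given earlier for the same genes in main classes. Not every such member is reported here.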
